A study of Mus musculus with 12 samples.

Results

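The cluster of miR-191 and miR-425 is a pair of miRNA hairpins, Mir191 and Mir425, that lie close together on mouse chromosome 9. Every miRNA named exactly miR-191 or miR-425, with either arm, was taken as a member, which gave 3 of the 350 miRNAs measured, namely mmu-miR-191-5p, mmu-miR-425-5p and mmu-miR-425-3p (written without the species prefix from here on). The cluster was chosen by the measured fall of miR-191-5p in the nucleus, 24 h of hypoxia against 0 h, so the nuclear 24 h against 0 h values of all 3 members are given below as a description, without a test. miR-191-3p was not analysed here.

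The small RNA sequencing (sRNA-seq) was done on C166, an endothelial cell line derived from mouse yolk sac. Cells were kept under hypoxia at 1% oxygen for 2 h or 24 h, or under normoxia (0 h), and were split into a nuclear and a cytoplasmic fraction. The 12 libraries form 6 groups of 2 replicates, namely the nucleus and the cytoplasm at 0, 2 and 24 h. All groups come from the same line and carry no other treatment. The study calls its replicates biological, but the labels do not say whether they are separate cultures, so p-values measure the spread between these libraries, which may be technical.

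A miRNA is cut from its hairpin first in the nucleus by Drosha and then in the cytoplasm by Dicer, and usually the strand from 1 arm stays in an Argonaute protein while the other is degraded. The Argonaute-bound strand pairs with target RNAs mainly through its seed, the short run of bases behind its 5′ end. Mature miRNAs and Argonaute proteins are also found in the nucleus. miR-191 is made in many cell types and, in human samples, has often served as a reference in miRNA quantification. miR-425 is made from the same primary transcript as miR-191.

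The mature sequences are shown because they separate the members from each other and from every other matched miRNA of the table. They are the RefSeq entries on GRCm38.p6, 5′ to 3′, with the seed (bases 2 to 8) in capitals.
miR-191-5p: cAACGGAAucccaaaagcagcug
miR-425-5p: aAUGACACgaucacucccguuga
miR-425-3p: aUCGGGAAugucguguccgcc
miR-191-3p (not analysed here): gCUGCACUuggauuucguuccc

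The 3 members have 3 different seeds. Of the 350 miRNAs, 301 were matched to a RefSeq mature sequence, and 0 of those outside the cluster shared a seed with a member. The hexamer AGUGUU, found at the 3′ end of the nuclear miR-29b in human cells, was looked for in the mature sequences as written, on the RNA strand only. It occurred in 2 of the 301 (0.664%) and in 0 members. The study names miR-29b-3p, miR-199a-5p and miR-199b-5p as its carriers in these data. miRNAs without a matched sequence were not searched here, so a carrier among them would be missed. It proposes that the hexamer is no true signal for the nucleus, at least in this setting. The longer motif UUGCAUAGU, which the study names as a nuclear enrichment signal, occurred as an exact string in 1 of the 301 (0.332%) and in 0 members. The study drew its nuclear motifs from a de novo motif analysis and reports them in nearly all nuclear-enriched let-7 miRNAs. An exact string search is a different measure. The study also states that related miRNAs likely skewed its motif analysis. Its other nuclear motif, which has ambiguous bases, was not searched for here.

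The hairpins show how the arms sit in their precursors, with the mature arms in capitals. Mir191 spans chr9:108568319-108568392 and Mir425 spans chr9:108568777-108568861, both on the plus strand of GRCm38.p6.
Mir191: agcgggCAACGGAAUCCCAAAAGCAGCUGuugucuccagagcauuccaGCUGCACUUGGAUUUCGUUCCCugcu
Mir425: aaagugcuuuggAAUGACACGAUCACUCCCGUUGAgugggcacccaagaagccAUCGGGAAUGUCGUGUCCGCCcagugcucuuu

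miR-191-5p lies at bases 108568325 to 108568347, miR-425-5p at 108568789 to 108568811 and miR-425-3p at 108568830 to 108568850. The hairpins are 384 bases apart. In GENCODE vM21 both lie in the single exon of the transcript 4833445I07Rik-201, a long intergenic non-coding RNA that runs from 108567533 to 108569174 on the plus strand. The protein-coding gene Dalrd3 starts 1024 bases after Mir425 in that annotation, whereas the RefSeq gene Dalrd3 (108567484 to 108572773) spans both hairpins. A miRNA gene, Gm24083, is annotated on the minus strand over Mir191.

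The reads assigned to the 350 miRNAs numbered 4708753 to 7787926 in a cytoplasmic library and 3379276 to 4375616 in a nuclear library. The deposited values are normalized counts, in which the reads of each library were divided by a DESeq2 size factor. They give the level of a miRNA relative to the others in its library, not an amount per cell, and in bulk fractions fewer cells with a miRNA and less of it per cell cannot be told apart. Of 2 endothelial markers, 1 was measured, miR-126a-3p, at 332 to 860 normalized counts over the libraries. Being found in all libraries does not set it apart, as no miRNA here fell under 10 reads anywhere. Of the markers of other tissues, 0 of 5 for blood, 3 of 5 for epithelium, 1 of 3 for muscle, 1 of 2 for the nervous system and 1 of 1 for liver were in the table. The muscle marker miR-206-3p had 250.5 to 926 normalized counts, the epithelial markers summed to 76.1 to 297, the neural marker to 34.0 to 82.5 and the liver marker to 21.8 to 155.

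miR-191-5p was the most abundant of the 3, with a mean of 9308 normalized counts over the 12 libraries (47th of 350). miR-425-5p had a mean of 979 (116th) and miR-425-3p, the other strand of the same hairpin, a mean of 59.2 (284th), against a median of 333 over the means of all miRNAs. The 3 members were arranged differently between the fractions. miR-191-5p was higher in the nucleus at 2 h. miR-425-3p was higher in the cytoplasm over all libraries but did not pass the test at 2 h, and miR-425-5p passed neither test. At 24 h in the nucleus miR-191-5p and miR-425-5p lay on opposite sides of their 0 h values.

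miR-191-5p had 16224 and 24838 normalized counts in the nuclear libraries at 0 h, 16442 and 13427 at 2 h, and 5749 and 6039 at 24 h. In the cytoplasmic libraries it had 4260 and 4383 at 0 h, 4914 and 4013 at 2 h, and 5652 and 5755 at 24 h. All 4 nuclear libraries at 0 and 2 h stood above all the others, while the nuclear libraries at 24 h overlapped the cytoplasmic libraries at 24 h. In order of level, the group means were 20531 ± 6091 in the nucleus at 0 h, 14935 ± 2132 in the nucleus at 2 h, 5894 ± 205 in the nucleus at 24 h, 5703 ± 72.8 in the cytoplasm at 24 h, 4464 ± 637 in the cytoplasm at 2 h and 4322 ± 86.9 in the cytoplasm at 0 h (SD, n = 2). Neighbours in this order overlapped between the nucleus at 0 and 2 h, between both fractions at 24 h, and between the cytoplasm at 2 and 0 h, and did not overlap otherwise. miR-191-5p ranked 29th to 38th of 350 in the nuclear libraries at 0 and 2 h and 53rd to 61st in the other libraries.

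miR-425-5p had 729 and 641 normalized counts in the nucleus at 0 h, 1386 and 823 at 2 h, and 1265 and 1406 at 24 h. In the cytoplasm it had 1492 and 876 at 0 h, 733 and 740.2 at 2 h, and 774 and 886 at 24 h. Replicate 1 of the cytoplasm at 0 h and replicate 1 of the nucleus at 2 h lay well above their partners, so these 2 groups were the widest. The group means ran from 1335 ± 99.7 in the nucleus at 24 h through 1184 ± 436 in the cytoplasm at 0 h, 1104 ± 398 in the nucleus at 2 h, 829.9 ± 79.2 in the cytoplasm at 24 h and 737 ± 5.13 in the cytoplasm at 2 h to 685 ± 62.1 in the nucleus at 0 h (SD, n = 2). The 4 highest groups overlapped their neighbours in this order, whereas the 2 lowest groups did not overlap theirs.

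miR-425-3p, which carries few reads, had 28.9 and 23.5 normalized counts in the nucleus at 0 h, 41.2 and 53.0 at 2 h, and 57.1 and 29.6 at 24 h. In the cytoplasm it had 72.4 and 79.7 at 0 h, 61.7 and 79.5 at 2 h, and 98.8 and 84.5 at 24 h. Every cytoplasmic library was above every nuclear library. These values rest on 94 to 122 reads in a cytoplasmic library and on 16 to 51 in a nuclear library, and the exact Poisson 95% interval of the lowest, 16 reads, was 9.15 to 25.98 reads. Such intervals cover counting error only. From the highest, the group means were 91.6 ± 10.1 in the cytoplasm at 24 h, 76.1 ± 5.20 in the cytoplasm at 0 h, 70.6 ± 12.6 in the cytoplasm at 2 h, 47.1 ± 8.33 in the nucleus at 2 h, 43.3 ± 19.5 in the nucleus at 24 h and 26.2 ± 3.83 in the nucleus at 0 h (SD, n = 2), with overlap of neighbours between the cytoplasm at 0 and 2 h and between the nucleus at 2 and 24 h.

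**Figure D1:**
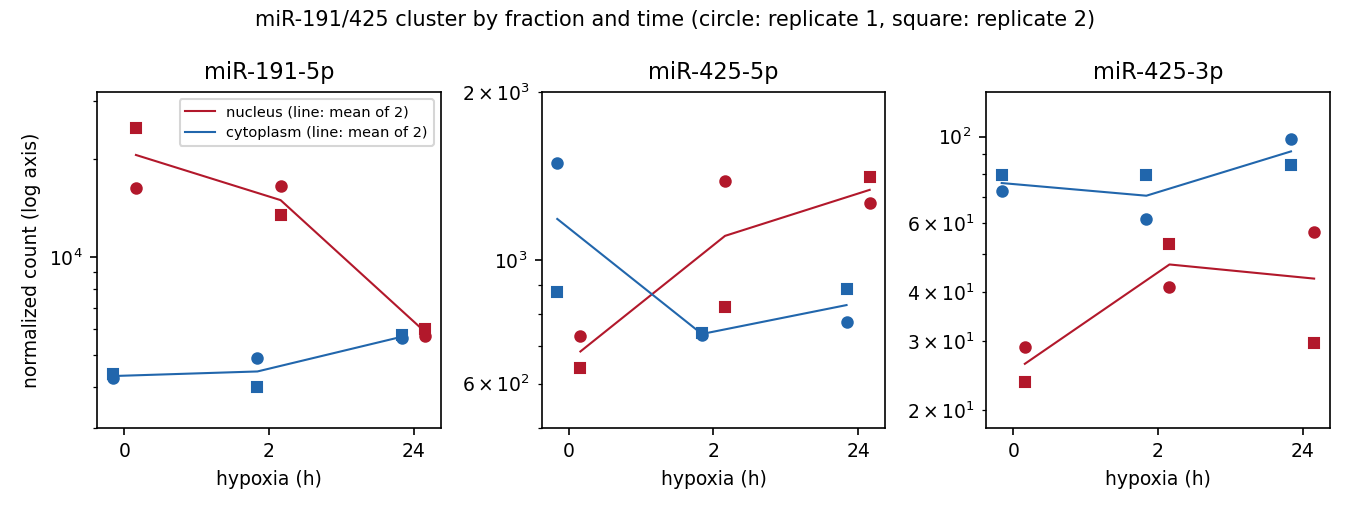
Normalized counts (log axis) of the 3 members against hours of hypoxia, with 1 point per library, circles for replicate 1, squares for replicate 2, and lines through the means of 2 libraries. Nuclear miR-191-5p (red) went from 20531 at 0 h to 5894 at 24 h and met the cytoplasmic level (blue, 5703), nuclear miR-425-5p went from 685 to 1335, and miR-425-3p was higher in the cytoplasm in every library.

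The plot of the members by library shows that the spread between replicates differed among groups and members. Nuclear miR-191-5p at 0 h, cytoplasmic miR-425-5p at 0 h and nuclear miR-425-3p at 24 h had the widest pairs for their miRNA.

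Nuclear and cytoplasmic libraries were compared to ask where each miRNA is enriched. miR-191-5p had a mean of 13786 ± 7209 normalized counts in the nuclear and 4829.6 ± 739 in the cytoplasmic libraries (SD, n = 6 each). Its level in the nucleus was 2.52 times that in the cytoplasm, with a log2 difference of 1.33 (SE 0.31) that became 0.94, under 2-fold, on scaling to total reads less miR-21a-5p. These values are a description, since 4 of the 6 nuclear libraries are those that chose the cluster. The fractions overlapped, because the nuclear libraries at 24 h reached down to the cytoplasmic ones.

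For miR-425-3p the means were 38.9 ± 13.8 in the nuclear and 79.4 ± 12.4 in the cytoplasmic libraries (SD, n = 6 each). Its log2 difference was -1.07 (SE 0.23, 95% interval -1.55 to -0.59), lower in the nucleus, with a limma adjusted p of 9.10e-04. The fractions did not overlap. With 10 added to each count in place of 1 the difference was -0.91, and leaving out nuclear replicate 2 at 0 h it was -0.94, both under the 2-fold limit of a call (adjusted p over its 23 alternatives, 1.91e-04 to 0.00302).

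miR-425-5p had 1042 ± 348 normalized counts in the nuclear and 917 ± 289.6 in the cytoplasmic libraries (SD, n = 6 each). The log2 difference was 0.16 (SE 0.24, 95% interval -0.34 to 0.66, limma adjusted p = 0.582), and its direction flipped when libraries were scaled to their total reads (-0.05) or to total reads less miR-21a-5p (-0.23). To be called, a miRNA had to reach an adjusted p below 0.01 together with a change of 2-fold or more. Of the 2 miR-425 arms, miR-425-3p met this rule, against 29.7% of all 350 miRNAs. The fractions also did not overlap for miR-425-3p, against 33.4% of all miRNAs.

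The libraries at 2 h had no part in choosing the cluster, and the fractions were compared in these 4 libraries too. The spread in this fit came from all 12 libraries, so the SE and p-values rest partly on the nuclear libraries that chose the cluster. miR-191-5p, at 16442 and 13427 in the nucleus and 4914 and 4013 in the cytoplasm, was 3.345-fold higher in the nucleus without overlap. The log2 difference was 1.74 (SE 0.19, 95% interval 1.35 to 2.14) and the limma adjusted p was 3.72e-07. miR-425-5p, at 0.54 (95% interval 0.02 to 1.05, limma adjusted p = 0.0641), and miR-425-3p, at -0.57 (95% interval -1.20 to 0.06, limma adjusted p = 0.107), were not called. The value of miR-425-5p was 0.16 or 0.91 when nuclear replicate 1 or 2 at 2 h was left out, and 0.12 on scaling to total reads less miR-21a-5p. Thus 1 of 3 members was called at 2 h, against 35.7% of all miRNAs, and for all 3 the fractions did not overlap, as for 78.6% of all miRNAs.

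The log2 difference between nucleus and cytoplasm of miR-191-5p was 2.22 at 0 h (4.64-fold), 1.74 at 2 h and 0.05 at 24 h (1.03-fold). For miR-425-5p it was -0.74 at 0 h, 0.54 at 2 h and 0.69 at 24 h, and for miR-425-3p it was -1.51, -0.57 and -1.13. The median of all 350 miRNAs stayed at -0.02, 0.02 and 0.11. Since the values at 0 and 24 h include the nuclear libraries that chose the cluster, they are a description.

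**Figure D2:**
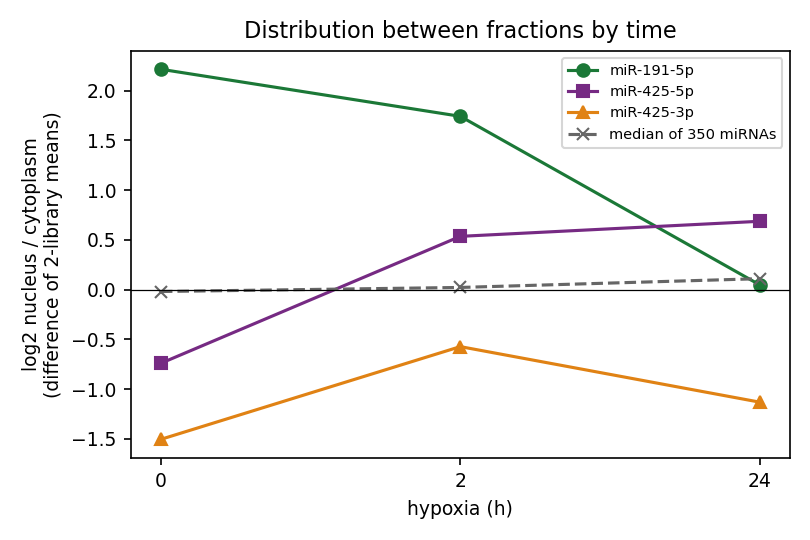
Difference between nucleus and cytoplasm (log2, mean of 2 nuclear minus mean of 2 cytoplasmic libraries) against hours of hypoxia for the 3 members and for the median of the 350 miRNAs (grey, dashed). miR-191-5p went from 2.22 to 0.05, miR-425-5p from -0.74 to 0.69, and miR-425-3p was below 0 at each time.

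The plot of the distribution by time shows 3 different courses. miR-191-5p started far on the nuclear side and ended at equal levels, miR-425-5p was at -0.74 at 0 h and at 0.54 at 2 h, where it did not pass the test, and miR-425-3p remained on the cytoplasmic side.

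The times were then compared within each fraction, to ask how hypoxia changed the levels. In the nucleus at 24 h, the comparison that chose the cluster, miR-191-5p was 3.41-fold lower than at 0 h (log2 difference -1.77, SE 0.19). miR-425-5p was 1.95-fold higher (log2 difference 0.96, SE 0.22), and the log2 difference of miR-425-3p was 0.64 (SE 0.34). The last value was 0.17 or 1.10 when nuclear replicate 1 or 2 at 24 h was left out. For each of the 3, no library at 24 h lay within the range at 0 h, as for 76.3% of all miRNAs, and 20.9% of all miRNAs were called (median log2 difference -0.02). No test is given for the members here.

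In the nucleus at 2 h, miR-191-5p had a log2 difference of -0.43 from 0 h (SE 0.19), with overlapping libraries, which is also a description. miR-425-5p had a log2 difference of 0.64 (SE 0.22, 95% interval 0.16 to 1.12, limma adjusted p = 0.108). For miR-425-3p the log2 difference was 0.82 (SE 0.34, 95% interval 0.09 to 1.55, limma adjusted p = 0.143). Both miR-425 arms were above 0 h without overlap, as 67.4% of all miRNAs did not overlap, and neither passed the test. limma called 0 of 350 miRNAs in this comparison (0%), while 102 had an unadjusted p below 0.05 and 25 an adjusted p below it, and limma-voom on the reads also called 0. For miR-425-5p 1 library decided the call, since with nuclear replicate 2 at 2 h left out its log2 difference was 1.02 and was called (limma adjusted p = 0.00115, against a range of 0.00115 to 0.667 over 17 alternatives).

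In the cytoplasm at 24 h, miR-191-5p was 1.32-fold higher than at 0 h, with a log2 difference of 0.40 (SE 0.18, 95% interval 0.04 to 0.77) and a limma adjusted p of 0.079. Its libraries at 24 h, 5652 and 5755, were above both at 0 h, 4260 and 4383. The log2 difference of miR-425-5p was -0.47 (SE 0.21, 95% interval -0.90 to -0.03, limma adjusted p = 0.0891), with overlap, and that of miR-425-3p was 0.26 (95% interval -0.26 to 0.78, limma adjusted p = 0.418), without overlap. The value of miR-425-5p was -0.08 or -0.85 when cytoplasmic replicate 1 or 2 at 0 h was left out, and -0.039 on scaling to total reads. On that scaling, which moved the median of all miRNAs to 0.32, miR-191-5p was 0.83 and miR-425-3p 0.69 (limma adjusted p = 0.0175 and 0.0446). On scaling to miR-186-5p they were 0.71 and 0.57 (limma adjusted p = 0.0254 and 0.168). None of these values met the rule of a call. Thus 0 of 3 members were called, against 13.7% of all miRNAs (median log2 difference -0.10). The libraries did not overlap for 2 of 3 members and for 75.1% of all miRNAs.

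At 2 h in the cytoplasm the log2 difference from 0 h was 0.04 for miR-191-5p (limma adjusted p = 0.964), -0.63 for miR-425-5p (SE 0.21, 95% interval -1.07 to -0.20, limma adjusted p = 0.291) and -0.12 for miR-425-3p (limma adjusted p = 0.907). The libraries of miR-425-5p did not overlap, those of the other members did, and 30.3% of all miRNAs did not overlap. limma called 0 of 350 miRNAs (0%), while 39 had an unadjusted p below 0.05, and limma-voom called 0. Here, too, 1 library decided miR-425-5p: with cytoplasmic replicate 2 at 0 h left out, whose value was 876 against 1492 in replicate 1, its log2 difference was -1.02 and was called (limma adjusted p = 2.62e-04, against a range of 2.62e-04 to 0.984 over 17 alternatives). The signs for miR-191-5p and miR-425-3p turned, to -0.11 and 0.07, when cytoplasmic replicate 1 at 2 h was left out.

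The response at 2 h was also compared between the fractions, as the nuclear change minus the cytoplasmic change, a comparison added after the values of miR-425-5p had been seen. For miR-425-5p the nuclear change exceeded the cytoplasmic change by 1.28 on the log2 scale (SE 0.34, limma adjusted p = 0.0362). For miR-425-3p the difference was 0.93 (limma adjusted p = 0.167). At an adjusted p under 0.05, 1 of the 2 miR-425 arms passed, against 5.71% of all miRNAs. This limit, without a fold, is looser than the adjusted p below 0.01 and 2-fold of the other calls, which miR-425-5p did not meet here. For miR-191-5p the value, -0.47, is a description, since its nuclear 0 h libraries chose the cluster. The fit treats libraries as independent, but replicate differences of the cytoplasm at 0 h and the nucleus at 2 h correlated at 0.475 over all miRNAs. Both of these groups enter the comparison with a plus sign. The value of miR-425-5p was lost on scaling to total reads (1.15, adjusted p = 0.059) or to miR-186-5p (0.89, adjusted p = 0.12) and without any of 7 single libraries (cytoplasm 0 h replicate 1, cytoplasm 2 h replicates 1 and 2, nucleus 0 h replicate 2, nucleus 2 h replicate 1, nucleus 24 h replicates 1 and 2, adjusted p = 0.0688 to 0.2, and 0.00152 to 0.2 over all 16 alternatives), and it ranged from 0.89 to 1.66 when each library was left out in turn. At 24 h the same quantity, given as a description, was -2.17 for miR-191-5p (SE 0.26), 1.43 for miR-425-5p (SE 0.34) and 0.37 for miR-425-3p (SE 0.42).

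Ratios between members within a library do not depend on the size factor. miR-191-5p and miR-425-5p come from neighbouring hairpins, and their ratio in the nuclear libraries was 22.3 and 38.7 at 0 h, 11.9 and 16.3 at 2 h, and 4.55 and 4.30 at 24 h. In the cytoplasm the ratio was 2.86 and 5.00 at 0 h, 6.71 and 5.42 at 2 h, and 7.30 and 6.50 at 24 h. Both nuclear values were above both cytoplasmic values at 0 and 2 h, and both were below them at 24 h. The geometric means were 29.4, 13.9 and 4.42 in the nucleus and 3.78, 6.03 and 6.89 in the cytoplasm.

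Over all times the log2 ratio of miR-191-5p to miR-425-5p was 3.61 ± 1.27 in the nuclear and 2.43 ± 0.49 in the cytoplasmic libraries (SD, n = 6 each), a 2.26-fold difference with overlap. It is a description, because the nuclear ratios hold the miR-191-5p values that chose the cluster.

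The miR-425 arms come from the same hairpin, and the ratio of miR-425-5p to miR-425-3p was 25.2 and 27.2 in the nucleus at 0 h, 33.6 and 15.5 at 2 h, and 22.2 and 47.5 at 24 h. In the cytoplasm it was 20.6 and 10.99 at 0 h, 11.9 and 9.31 at 2 h, and 7.84 and 10.5 at 24 h. Nuclear values lay above the cytoplasmic ones apart from replicate 2 of the nucleus at 2 h, which was below replicate 1 of the cytoplasm at 0 h. The mean log2 ratio was 4.75 ± 0.55 in the nuclear and 3.50 ± 0.48 in the cytoplasmic libraries (SD, n = 6 each), a 2.38-fold difference (exact two-sided permutation test, p = 0.00433, where the smallest possible value is 0.00216). It was 1.09 to 1.43 on the log2 scale when each library was left out, against 1.25 with all of them. The nuclear values rest on as few as 16 reads of miR-425-3p.

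**Figure D3:**
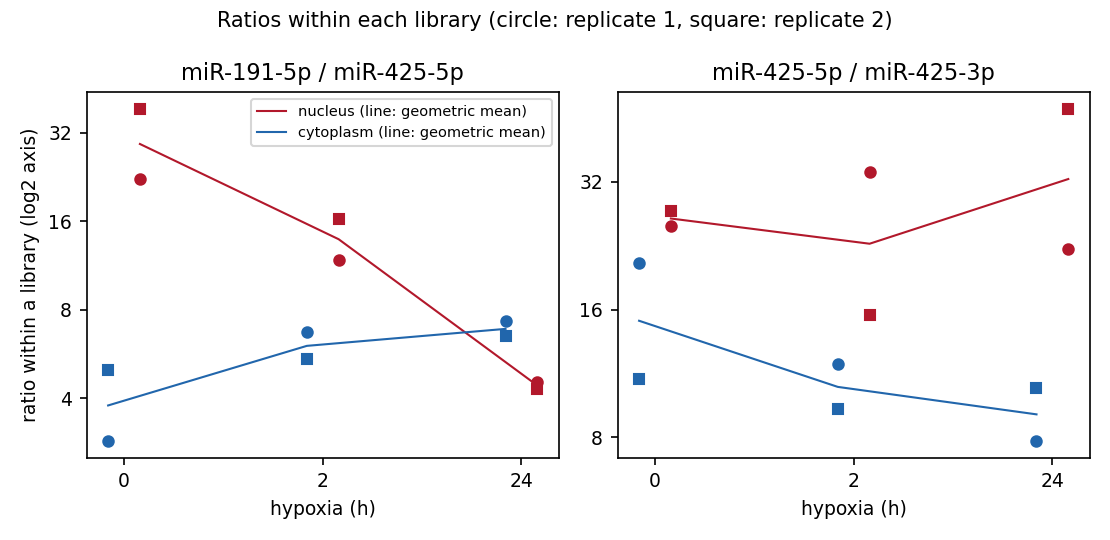
Ratio of normalized counts within each library (log2 axis) against hours of hypoxia, for miR-191-5p to miR-425-5p (left) and miR-425-5p to miR-425-3p (right), with circles for replicate 1, squares for replicate 2 and lines through the geometric means. The left ratio went from 29.4 to 4.42 in the nucleus (red) and from 3.78 to 6.89 in the cytoplasm (blue), and the right ratio was higher in the nucleus at each time.

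The plot of the ratios shows the crossing of the fractions for the neighbouring hairpins and its absence for the arms of Mir425.

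The miRNAs with the profile nearest to a member were found by the root mean square difference of log2(normalized count + 1), each centred on its mean, over the 12 libraries. For miR-191-5p they were miR-195a-5p (0.27), miR-1839-5p (0.29), miR-103-3p (0.30), miR-146a-5p (0.30) and miR-361-5p (0.31), against a median of 1.00 over all miRNAs. The log2 difference between nucleus and cytoplasm was 1.51 for miR-195a-5p, 1.09 for miR-1839-5p, 1.86 for miR-103-3p, 1.56 for miR-146a-5p and 1.02 for miR-361-5p. All 5 stood on the nuclear side, like miR-191-5p at 1.33, and their nuclear log2 differences between 24 h and 0 h ran from -2.17 (miR-103-3p) to -1.04 (miR-361-5p). These values are a description, since the likeness selected them. miR-425-5p was 202nd of all miRNAs in likeness to miR-191-5p (1.05) and miR-425-3p was 290th (1.43).

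For miR-425-5p the nearest were miR-218-5p (0.17), miR-32-5p (0.17), miR-214-5p (0.19), miR-126a-3p (0.20) and miR-1964-3p (0.23), against a median of 0.67. All had small differences between the fractions, from -0.13 (miR-214-5p and miR-126a-3p) to 0.32 (miR-218-5p) on the log2 scale. Their nuclear log2 differences between 24 h and 0 h were 0.57 for miR-218-5p, 1.06 for miR-32-5p, 1.02 for miR-214-5p, 0.91 for miR-126a-3p and 0.86 for miR-1964-3p. miR-425-3p, the other arm of the hairpin, was 226th (0.77).

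**Figure D4:**
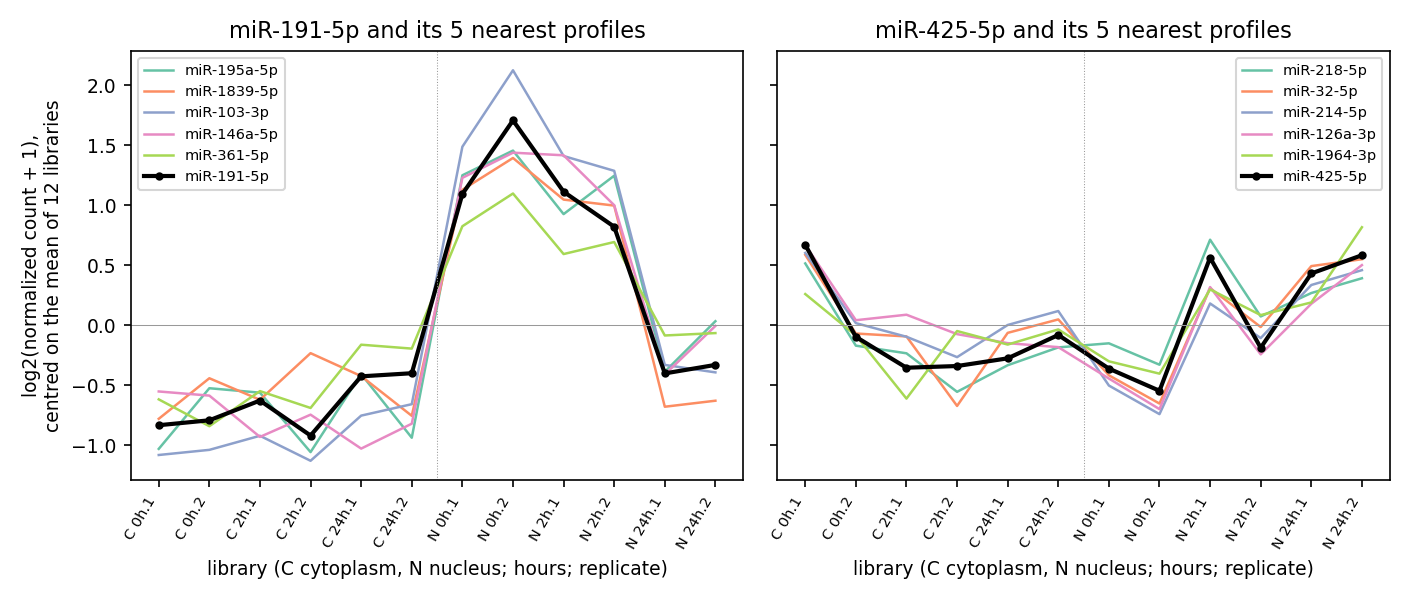
log2(normalized count + 1), centred on the mean of the 12 libraries, for miR-191-5p (left) and miR-425-5p (right) in black with their 5 nearest miRNAs in colour, by library (C cytoplasm, N nucleus, hours, replicate). On the left all 6 lines are high in the nuclear libraries at 0 and 2 h, and on the right replicate 1 of the cytoplasm at 0 h and replicate 1 of the nucleus at 2 h lie above their partners in all 6 lines.

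The plot of the nearest profiles shows that the wide pairs of miR-425-5p, replicate 1 of the cytoplasm at 0 h and of the nucleus at 2 h, recur in the miRNAs nearest to it, which is fixed by their choice for likeness over the same 12 libraries. The part of these libraries in the values of miR-425-5p was followed by leaving each out, as given above.

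miRNAs of a shared cluster were compared next, as pairs of partners. Of 12 other listed pairs, 9 had both partners in the table. In the nucleus, the log2 differences between 24 h and 0 h of miR-191-5p (-1.77) and miR-425-5p (0.96) lay 2.73 apart, whereas the partners of the other pairs lay 0.01 to 1.38 apart (median 0.51). The widest of the others were miR-30b-5p (0.35) and miR-30d-5p (-1.03), 1.38 apart, and miR-143-3p (-0.27) and miR-145a-5p (0.69), 0.96 apart. In the cytoplasm, where the rule used no value, miR-191-5p (0.40) and miR-425-5p (-0.47) lay 0.87 apart, inside the range of the other pairs (0.09 to 1.06, median 0.66). The nuclear values are a description, because that comparison chose the cluster.

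**Figure D5:**
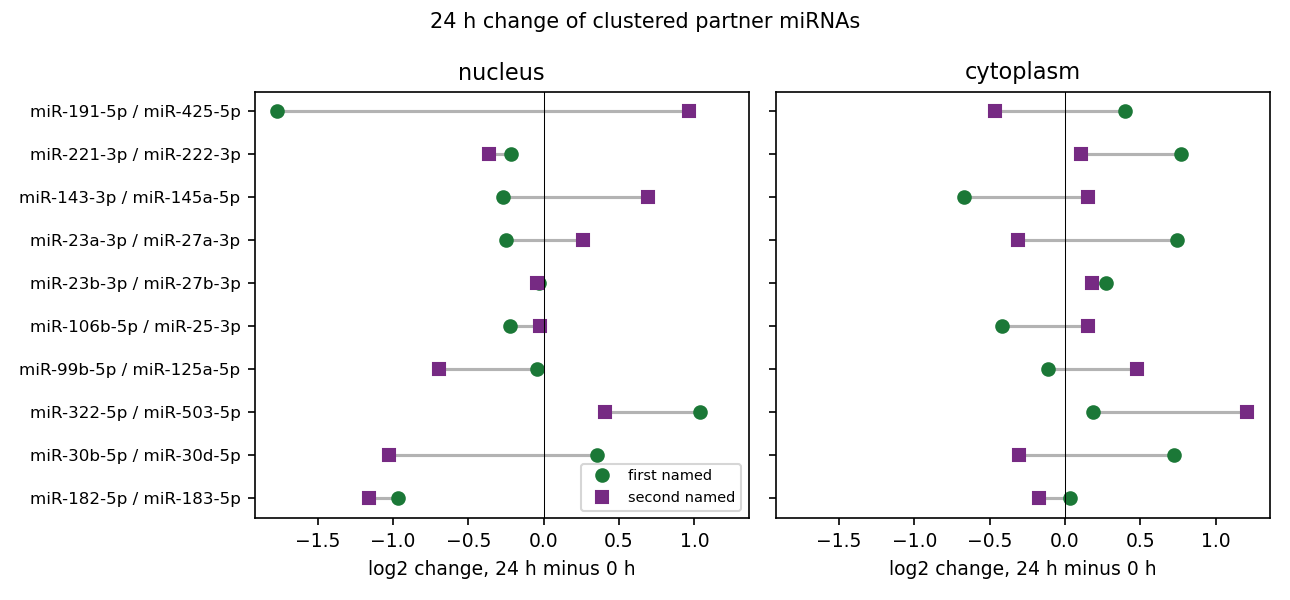
Log2 difference between 24 h and 0 h of both partners of each clustered pair (circle first named, square second named, joined by a grey line), in the nucleus (left) and the cytoplasm (right). The miR-191-5p and miR-425-5p points lie 2.73 apart in the nucleus, against at most 1.38 for the other 9 pairs, and 0.87 apart in the cytoplasm, where others reach 1.06.

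The plot of partner pairs shows partners of other clusters that also lay apart, and that the miR-191 and miR-425 pair was the widest of the 10 in the nucleus but not in the cytoplasm.

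A list of 22 miRNAs associated with hypoxia, drawn mainly from work on human cells and chosen with earlier results of these data known, was set beside the cluster. All 22 were in the table, and none is a member. At 24 h miR-210-3p, the miRNA best known as a target of hypoxia-inducible factor, rose in both fractions, with a log2 difference of 2.84 in the nucleus (SE 0.17, limma adjusted p = 1.14e-08) and 2.31 in the cytoplasm (SE 0.17, limma adjusted p = 7.42e-10). In the nucleus 2 of the 22 rose, the other being miR-322-5p (1.03), and 4 fell, namely miR-103-3p (-2.17), miR-195a-5p (-1.53), miR-106a-5p (-1.20) and miR-125b-5p (-1.01), against 20.9% of all miRNAs called in this comparison. Of all 350 miRNAs, 27 rose and 46 fell there. The list had a median of -0.13, against -0.02 for all miRNAs. Both medians moved with the scaling. They were 0.33 for the list and 0.43 for all miRNAs when miR-21a-5p was taken out of the total. There 3 of the list rose and 2 fell, against 83 and 19 of all 350. With upper-quartile scaling the medians were 0.05 and 0.15, and 2 of the list rose and 3 fell, against 43 and 29 of all 350. The list median thus stayed below that of all miRNAs under these scalings. In the cytoplasm miR-210-3p was the 1 called, against 13.7% of all miRNAs, with a list median of 0.06 against -0.10 for all miRNAs. On scaling to total reads 3 of the list were called there, against 53 of all 350. The list median was then 0.48, against 0.32 for all miRNAs. On scaling to miR-186-5p 2 were called, against 16 of all 350, with a list median of 0.37 against 0.21. At 2 h limma called 0 of the 22 in either fraction, with medians of -0.08 against -0.08 for all miRNAs in the nucleus and -0.05 against -0.01 in the cytoplasm. miR-103-3p and miR-195a-5p of this list are also among the 5 miRNAs nearest in profile to miR-191-5p.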

How the data were processed

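sRNA-seq libraries of nuclei and cytoplasm of C166 cells were sequenced at 0, 2 and 24 h of hypoxia (12 libraries, 2 per group). Reads were converted with bcl2fastq, trimmed with Trimmomatic, mapped to miRBase release 20 with Bowtie2 2.1.0 and normalized with DESeq2 by the authors. The submitters' processing notes list GRCm38 and mm10. The authors deposited 1 signal value per miRNA and library, its normalized count, for 350 miRNAs. The columns of the authors' own comparisons (fold changes and p-values) were not used. Every value times its library's size factor was within 0.01 of a whole read, with at least 10 reads per miRNA and library. A suffix for merged names was removed from 32 names.

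Differences were fitted on log2(normalized count + 1), a scale that understates the change of low miRNAs, with limma 3.58.1 in R 4.3.3, a variance trend and Benjamini-Hochberg adjustment over the 350 miRNAs. Fraction was the only term over 12 libraries. Times were fitted within each fraction, and the 2 h fractions and the differences in response over 6 group means. Ratios were compared with exact permutation tests over libraries. Differences of miR-191-5p taken from the nuclear 0 h or 24 h libraries, which chose the cluster, are given without a test. The test of the fractions at 2 h takes its spread, but not its difference, partly from those libraries. The script was tested on simulated data. edgeR and DESeq2 were not run on the recovered reads, because these did not pass a check of the unit, and limma-voom was used on them instead.

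The members and lists were chosen with earlier results of these data known. The miRNAs named are every member, the 5 nearest in profile to miR-191-5p and to miR-425-5p, any with a member's seed, and the listed partner pairs and hypoxia-associated miRNAs, with values for miR-210-3p and for those called. Alternatives were added counts of 0.5 and 10, a minimum mean of 100, scaling to the upper quartile (0.75), to miR-186-5p, to total reads and to total reads less miR-21a-5p, an adjusted p below 0.05 at any fold, no variance trend, time as a further term for the fractions, each library left out in turn, and a replicate block. limma-voom on recovered reads and the comparison of the 2 h responses were added after the data were seen. Nuclear libraries were shallower than cytoplasmic ones (3379276 to 4375616 against 4708753 to 7787926 reads), which limits miR-425-3p most. scipy 1.17.1, pandas 2.3.3, numpy 2.4.6 and matplotlib 3.10.9 were used under Python 3.11.15.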

Additional observations from a re-analysis of the deposited data

Results flagged for a closer look

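The change of miR-425-5p between 0 and 2 h differed between the fractions by 1.28 on the log2 scale, nucleus minus cytoplasm (SE 0.34, limma adjusted p = 0.0362). It was listed because the difference passed an adjusted p under 0.05, a looser limit than the adjusted p below 0.01 with 2-fold used for other calls. The comparison was added after the values had been seen and did not pass under several alternatives. Replicate differences of the cytoplasm at 0 h and the nucleus at 2 h, which enter it with the same sign, correlated at 0.475 over all miRNAs. Both nuclear libraries at 2 h (1386 and 823 normalized counts) were above both at 0 h (729 and 641), and both cytoplasmic libraries at 2 h (733 and 740.2) were below both at 0 h (1492 and 876).

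The change of miR-191-5p between 0 and 24 h differed between the fractions by -2.17 on the log2 scale, nucleus minus cytoplasm (SE 0.26). It was listed because both nuclear libraries at 24 h were below both at 0 h while both cytoplasmic libraries at 24 h were above both at 0 h. The difference was not tested, since the nuclear change chose the cluster.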

How the results depend on the processing

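Of 592 values recomputed under alternatives, 529 kept their direction and side of the threshold or stayed close to the value given. A further 7 changed direction. Some of the 592 could not change. Leaving out a library outside a comparison returned the same difference, and the looser threshold was applied to the same fit. Numbers of miRNAs called are also among the 592, so the share does not measure how firm the results are. The deviations of same-numbered nuclear and cytoplasmic libraries correlated at 0.07, 0.24 and 0.09 at 0, 2 and 24 h, and those of same-numbered libraries of other groups at -0.23 to 0.48. The highest, 0.475, was between the cytoplasm at 0 h and the nucleus at 2 h. The labels do not say whether a number marks a shared culture, and the libraries were not treated as paired. A replicate block left each log2 difference as it was, so direction could not change, only p-values and numbers called. All 26 values, which include numbers of miRNAs called, kept their side or stayed close. The limma adjusted p of miR-425-5p between the fractions at 2 h went from 0.0641 to 0.0169. The exact permutation p of the miR-425 arm ratio went from 0.00433 to 0.0312, the smallest value possible when same-numbered libraries are paired. For miR-425-3p between the fractions the replicate block gave -1.07 on the log2 scale (limma adjusted p = 0.00122). The minimum mean of 100 removed miR-425-3p, which has no value there. A left-out library leaves its group with 1 library, which is assumed to vary like the others.

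For nucleus against cytoplasm, miR-191-5p was 0.94 on scaling to the total without miR-21a-5p, under 2-fold, and miR-425-5p turned to -0.052 on scaling to the total and to -0.23 without miR-21a-5p. These scalings moved the median of all miRNAs from 0.03 to -0.18 and -0.36. miR-425-3p was -0.91 with 10 added, and -1.19 to -0.94 when each library was left out. At an adjusted p below 0.05 and any fold, 196 miRNAs passed over all libraries, 221 at 2 h, 123 in the cytoplasm at 24 h, 163 in the nucleus at 24 h and 25 in the nucleus at 2 h. Scaling to miR-186-5p left 16 in the cytoplasm at 24 h, and scaling to the upper quartile gave 4 in the nucleus at 2 h.

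Leaving out each library, the change at 2 h in the cytoplasm ran from -0.11 to 0.19 for miR-191-5p, from -1.02 to -0.25 for miR-425-5p and from -0.30 to 0.065 for miR-425-3p, with 0 to 9 miRNAs called (9 without cytoplasm 0 h replicate 2). In the nucleus at 2 h it ran from 0.27 to 1.02 for miR-425-5p, with 0 to 17 called (17 without nucleus 2 h replicate 2, 4 without nucleus 0 h replicate 1). In the nucleus at 24 h 18 to 86 were called, with 18 and 25 without replicates 1 and 2 at 24 h and 43 without nucleus 0 h replicate 2. There miR-191-5p was -1.31 and miR-425-5p 1.42 on scaling to the total without miR-21a-5p, against a median of 0.43, and miR-425-5p was 0.80 on scaling to miR-186-5p and 1.14 to the upper quartile.

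The difference in the 24 h response was -2.59, -1.85 and -2.64 for miR-191-5p, and 1.01, 1.75 and 0.95 for miR-425-5p, on scaling to the total, to the total without miR-21a-5p and to miR-186-5p. For miR-425-3p it turned to -0.040 (total) and -0.093 (miR-186-5p). Leaving out each library gave -2.48 to -1.86, 1.04 to 1.81 and -0.089 to 0.84 for the 3 members, the last turning without nucleus 24 h replicate 1. In the 2 h response miR-425-5p was 1.15 (total) and 0.89 (miR-186-5p), and 0.89 to 1.66 over left-out libraries. There 13 and 0 miRNAs passed under these scalings, and 0 to 66 over left-out libraries (0 or 1 without any of the 7 libraries that end the miR-425-5p call, and 38, 52 and 66 without nucleus 0 h replicate 1, nucleus 2 h replicate 2 and cytoplasm 0 h replicate 2). The ratio of miR-191-5p to miR-425-5p ran from 0.84 to 1.48 on the log2 scale. The causes were not tested. With 2 libraries per group and 16 to 51 nuclear reads, small changes of miR-425-3p were not detectable.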
